A study of Homo sapiens with 42 samples.

Results

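The miR-23-27-24 clusters are a pair of paralogous microRNA loci, each giving 3 hairpins in the same order. The A cluster holds MIR23A, MIR27A and MIR24-2, and the B cluster holds MIR23B, MIR27B and MIR24-1. These 6 hairpins were taken by symbol from the table of small RNA counts, as rows of at most 500 bases annotated as microRNA or precursor RNA, and all 6 were found among 175946 rows, of which 4228 non-overlapping rows were annotated as microRNA. The study made knockouts of POLR3G and POLR3GL, alternative subunits of RNA polymerase III, in THP-1 cells, a human monocytic leukaemia line, and knocked POLR3G down in HEK293T cells, a human embryonic kidney line. Counts were available for 30 libraries. The groups named A4, A7, E4 and G8, from THP-1 cells, have 3 libraries each with and without treatment of the RNA with Antarctic phosphatase and polynucleotide kinase (plus and minus PNK), and so do the libraries labelled mock, described as HEK293T cells given 200 nM of a control antisense oligonucleotide. The labels do not say which subunit was targeted in A4, A7, E4 or G8, nor whether each is 1 clone, so these groups were kept apart. The 12 libraries labelled con or given the POLR3G oligonucleotide were not analysed here, so no THP-1 group was set against unedited THP-1 cells.

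MicroRNAs are cut from RNA polymerase II transcripts by Drosha and Dicer, and the mature strand guides Argonaute to messenger RNAs that pair with its seed. Both clusters are made as 1 primary transcript each, so the 3 hairpins of a cluster share transcription but are processed and stabilised separately. In mouse blood progenitors the A cluster is known as a target of the myeloid factor PU.1. Dicer products carry a 5′ phosphate and a 3′ hydroxyl and are ligated without end repair, whereas PNK treatment opens the library to RNAs with other ends.

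The sequences show how close the clusters are, and why their mature products are hard to separate by read. RefSeq (GRCh38.p14) holds mature sequences for 6 of the 6 hairpins; those of the 3p arms are given with the seed, bases 2 to 8, in capitals.
hsa-miR-23a-3p: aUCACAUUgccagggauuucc
hsa-miR-23b-3p: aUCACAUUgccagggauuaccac
hsa-miR-27a-3p: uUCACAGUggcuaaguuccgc
hsa-miR-27b-3p: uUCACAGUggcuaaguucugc
hsa-miR-24-3p (MIR24-1 and MIR24-2): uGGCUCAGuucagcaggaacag
The 5p arms of the MIR24 hairpins are given because they differ where the 3p arms do not.
hsa-miR-24-2-5p: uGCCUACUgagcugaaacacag
hsa-miR-24-1-5p: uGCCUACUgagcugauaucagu
The 6 hairpins thus carry 3 3p seeds, each shared by the A member and its B paralogue. Counted from 1 at the 5′ end, miR-23a-3p and miR-23b-3p differ by 1 substitution (U19A) over the 21 bases compared, and miR-27a-3p and miR-27b-3p by 1 substitution (C19U). MIR24-2 and MIR24-1 give the same 22 bases of miR-24-3p, with 0 substitutions, so reads of miR-24-3p cannot be assigned to either cluster. Their 5p arms differ at 6 positions, the first being position 16.

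In GRCh38, the build of the files, the A cluster lies on the minus strand at chr19:13836287-13836659, over 373 bases, inside an exon of the antisense-type long non-coding gene AC020916.1. The B cluster lies on the plus strand at chr9:95085208-95086088, over 881 bases, within the protein-coding gene C9orf3, where MIR24-1 overlaps an exon and MIR23B and MIR27B do not. MIR3074 is annotated on the opposite strand of MIR24-1 and shares its row, so the reads of this pair cannot be told apart. The row of MIR23A covers only the 5p arm and that of MIR27B only the 3p arm, yet each counted nearly all reads of its hairpin: the 3 A rows summed to 566001 of the 566023 counts of the 373-base row over the whole cluster without PNK, and the 3 B rows to 181451 of the 181492 counts of an 869-base row. The values below are therefore reads per hairpin, and the arms cannot be told apart. Reads of host RNA outside the hairpins were almost absent, since the longest rows over the clusters held 566077 counts (A) and 181530 counts (B) without PNK. These are small RNA libraries, so the level of the host transcripts was not measured. With PNK the hairpins still made up 97.7% of the longest A row and 88.5% of the longest B row.

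The libraries held 6500700 to 9247762 counts over non-overlapping rows with PNK and 9972451 to 13571950 without. MicroRNA rows took 0.169% to 0.937% of counts with PNK, and 12.6% to 24.5% without PNK except in G8 libraries 1 and 2, where they took 2.01% and 1.93% against 18% in G8 library 3. A list of 9 microRNAs of blood cells, which includes MIR142 and MIR223, was summed in counts-per-million (CPM) of microRNA counts alone. Without PNK it gave 43321 to 48393 in A4, 50300 to 53220 in A7, 43983 to 47226 in E4 and 28318 to 37653 in G8. It gave 38065 to 43605 in the libraries labelled mock, below all A7 and E4 libraries and above those of G8. With PNK the same list summed to 27990 to 50227 in A4, A7 and E4 and 15938 to 26366 in G8, against 18604 to 22894 in the libraries labelled mock, all 3 of which lay below the 9 libraries of A4, A7 and E4. As a sum, this list was thus abundant in the libraries labelled mock in both arms, though lower than in A7 and E4 in both arms and than in A4 with PNK. The sum does not show which members carry it. Without PNK, 0 of the 7 members tested were called against these libraries in A4, A7 or E4 by edgeR. Their median log2 fold changes were -0.08, -0.05 and 0.09. In G8, 2 of the 7 were called lower. The label of these libraries as a kidney line therefore goes against this list as a whole, and they are called the libraries labelled mock throughout. Without PNK, a list of 7 epithelial microRNAs summed to 157 to 347 on the same scale in the THP-1 groups and 205 to 238 in the libraries labelled mock, with 1 to 4 of the 7 at 0 in a library. With PNK it summed to 90.4 to 344 in the THP-1 groups and 0 to 152 in the libraries labelled mock, with 3 to 7 of the 7 at 0. Nothing in the labels says that replicates are separate cultures, so p-values measure only the spread between libraries, which may be technical.

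Without PNK, MIR27A gave the most reads of the 6 hairpins in 13 of the 15 libraries. The summed counts were 339672 for MIR27A, 123650 for MIR24-2, 118226 for MIR24-1, 102679 for MIR23A, 43623 for MIR27B and 19602 for MIR23B. Per base of annotated hairpin, they were 4355 for MIR27A, 1739 for MIR24-1, 1694 for MIR24-2, 1407 for MIR23A, 449.7 for MIR27B and 202 for MIR23B. The mature arms are 21 to 23 bases long, so these values follow the annotation and do not correct the read numbers. miR-27a-3p is known to act in fat cell differentiation and in blood, where RUNX1 is among its targets. In CPM (counts scaled to a common library size with TMM factors), MIR27A had 1638, 1880 and 2684 in A4, 2184, 2756 and 2128 in A7, and 1885, 1911 and 2154 in E4. It had 167.5, 199.4 and 2715 CPM in G8, against 2511, 2151 and 1330 CPM in the libraries labelled mock. G8 libraries 1 and 2 lay far below all others, G8 library 3 lay among the highest, and the remaining groups overlapped. MIR23A, whose product miR-23a-3p is known to repress glutaminase, had 671, 558 and 554 CPM in A4, 422, 463 and 676 in A7, and 687, 559 and 661 in E4. It had 189, 219.8 and 888 CPM in G8, against 539, 760.1 and 932 CPM in the libraries labelled mock. In the low pair of G8 libraries MIR23A thus gave slightly more reads than MIR27A, while in each of the other 13 libraries MIR27A gave more.

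MIR23B and MIR27B gave fewer reads than their A paralogues. MIR23B had 103, 86.4 and 101 CPM in A4, 88.0, 100.2 and 123.3 in A7, and 122, 101 and 154 in E4. It had 34.2, 47.0 and 150.5 CPM in G8, against 139.7, 161 and 166 CPM in the libraries labelled mock. All 3 A4 and all 3 A7 libraries lay below all 3 libraries labelled mock for MIR23B, and E4 overlapped them. MIR27B had 223, 216 and 251 CPM in A4, 211, 287 and 263 in A7, 270.4, 259 and 264 in E4, and 18.3, 26.7 and 427 in G8, against 297, 372 and 275 CPM in the libraries labelled mock. G8 library 3 was the highest of all 15 libraries for MIR27B, and G8 libraries 1 and 2 were the lowest. MIR24-2 ranged from 115 to 1027 CPM and MIR24-1 from 119 to 1023 CPM over the 15 libraries, both ends being G8 libraries.

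**Figure D1:**
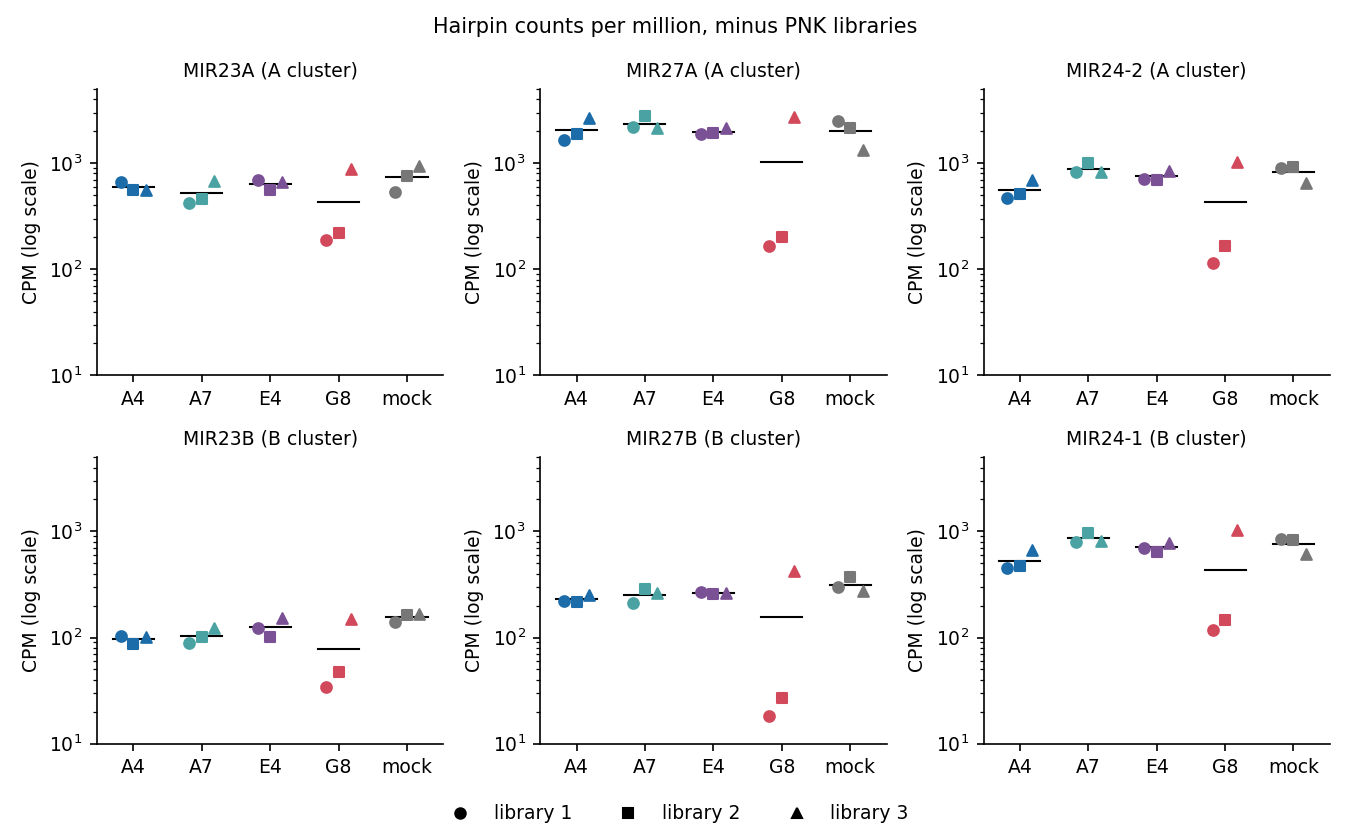
CPM (log scale) of the 6 hairpins in the 15 libraries without PNK, by group; points are libraries, marker shape gives the library number and the black line the group mean. G8 libraries 1 and 2 are the lowest for every hairpin, for example 18.3 and 26.7 CPM for MIR27B, while G8 library 3 is at 427 CPM.

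The question across A4, A7, E4 and G8 was whether the knockout groups differ in these microRNAs. Without PNK, edgeR's quasi-likelihood test across the 4 groups called 0 of the 6 hairpins (adjusted p between 0.529 for MIR24-2 and 0.860 for MIR27B), against 31.8% of all features tested; 867 of 1798 features had an unadjusted p under 0.05. DESeq2's likelihood ratio test gave an adjusted p for MIR23A and MIR23B only and called neither (0.882 and 0.769). In bulk RNA, fewer cells of a type and less RNA per cell cannot be told apart. This outcome rested on G8: without G8 library 3, edgeR called all 6 hairpins (adjusted p between 2.30e-06 and 0.000422), and without G8 libraries 1 and 2 it called MIR24-2 (0.0367), MIR24-1 (0.0302) and MIR27B (0.0212), with 1 library left in G8 and assumed to vary like the other groups.

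Set against the libraries labelled mock without PNK, 0 of 6 hairpins were called in A4, A7, E4 or G8 by edgeR, against 1.3%, 0.38%, 4.18% and 26.6% of all features; at an unadjusted p under 0.05 these counts over all features were 303, 205, 324 and 738, and DESeq2, which gave an adjusted p for MIR23A and MIR23B only, called neither. With the replicate number as a block, the features called in A7 numbered 0 in place of 7, again with no hairpin among them. The sizes were small outside G8. In A4 the log2 fold changes of the 6 hairpins lay between -0.68 and 0.05, in A7 between -0.59 and 0.24 and in E4 between -0.31 and -0.01. MIR23B had the lowest of the 6 in each of these groups: -0.68 (SE 0.43, edgeR adjusted p = 0.420) in A4, -0.59 (SE 0.43, adjusted p = 0.684) in A7 and -0.31 (SE 0.43, adjusted p = 0.833) in E4. In G8 the 6 fold changes lay between -1.01 and -0.78 on the log2 scale and none passed the edgeR test (adjusted p between 0.10 and 0.360). MicroRNA rows in general were lower in G8 too: the median of the 364 tested was -0.89, with 47 called lower and 3 higher. For other microRNAs from paralogous clusters the median was -1.16, with 8 of 32 called lower. Without G8 library 3 all 6 were called lower in G8, from -3.95 for MIR27B to -1.99 for MIR23A (edgeR adjusted p at most 1.75e-05), and without G8 libraries 1 and 2 all 6 fold changes were positive, 0.17 to 0.67, with none called.

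The balance between the hairpins of a cluster moved in the same libraries in both clusters. These ratios were chosen after their values were seen and are given with no test. MIR27A over MIR23A, as a ratio of counts, was 2.44, 3.37 and 4.85 in A4, 5.17, 5.96 and 3.15 in A7, and 2.74, 3.42 and 3.26 in E4. It was 0.887, 0.907 and 3.06 in G8, against 4.66, 2.83 and 1.43 in the libraries labelled mock. MIR27B over MIR23B was 1.65 to 2.86 in the 13 libraries other than G8 1 and 2, where it was 0.536 and 0.570. The pair of libraries poor in microRNA thus held less miR-27 per miR-23 in the A cluster and in the B cluster alike, and miR-24 moved less: MIR24-2 over MIR23A was 0.607 and 0.747 there, against 0.697 to 2.15 in the other 13 libraries, and MIR24-1 over MIR23B was 3.47 and 3.08, against 3.72 to 9.69. The share of microRNA in the library moves with this difference, and its part in it was not tested. How far reads of an A hairpin were counted at its B paralogue was not tested either.

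**Figure D2:**
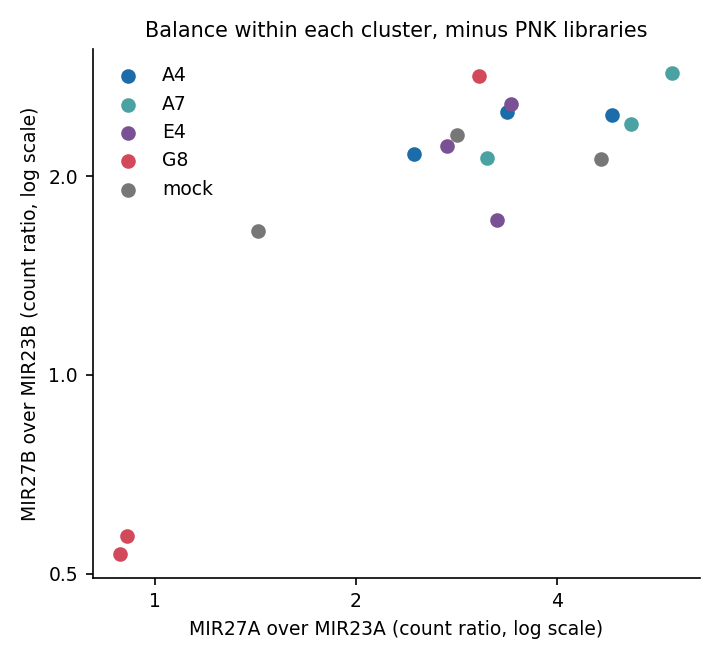
Ratio of MIR27B to MIR23B counts (vertical, log scale) against the ratio of MIR27A to MIR23A counts (horizontal, log scale) in the 15 libraries without PNK, coloured by group. G8 libraries 1 and 2 sit alone at the lower left, below 1 on both axes.

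Without PNK, A4 stood apart in the ratio of MIR27A to MIR24-2. Reads of miR-24-3p cannot be assigned to either cluster, so this ratio is not a balance within the A cluster alone. MIR27A over MIR24-2 was 3.50, 3.67 and 3.85 in A4 without PNK, and 2.03 to 2.80 in the other libraries apart from G8 1 and 2. All 3 A4 libraries thus lay above the other 12 libraries. The ratio of the summed A cluster to the summed B cluster followed it, at 3.58, 3.82 and 3.84 in A4 against 2.67 to 3.17 in the other 12 libraries, with the reads of miR-24-3p counted in both sums. With PNK, A4 did not stand apart: MIR27A over MIR24-2 was 2.08, 1.86 and 2.39 in A4 against 1.07 to 1.99 in the other 12 libraries, and the ratio of the sums was 2.61, 2.42 and 2.88 in A4 against 1.49 to 3.34. These values carry no test, since the ratio was picked after its values were seen.

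The A cluster gave more reads than the B cluster in all 30 libraries. MIR23A over MIR23B, a ratio within a library that no scaling changes, was 6.49, 6.45 and 5.46 in A4, 4.8, 4.61 and 5.48 in A7, 5.65, 5.55 and 4.30 in E4 and 5.51, 4.67 and 5.90 in G8 without PNK, against 3.86, 4.71 and 5.6 in the libraries labelled mock. These ranges overlapped, and G8 libraries 1 and 2 lay inside them although MIR23A itself varied 4.93-fold over the 15 libraries. MIR27A over MIR27B was 7.34, 8.71 and 10.7 in A4, 10.3, 9.61 and 8.10 in A7, 6.97, 7.39 and 8.17 in E4 and 9.10, 7.44 and 6.35 in G8, against 8.47, 5.78 and 4.83 in the libraries labelled mock. MIR27A itself varied 16.5-fold and MIR27B 23.3-fold over these libraries, while their ratio stayed between 4.83 and 10.7. The 3p arms of miR-23 and of miR-27 differ between paralogues by 1 base, at position 19. How far these ratios depend on the assignment of reads was not tested. The ratios of the summed counts without PNK were 5.24 for miR-23 and 7.79 for miR-27. Per base of annotated hairpin (73 bases for MIR23A and 97 for MIR23B, 78 for MIR27A and 97 for MIR27B), they were 6.96 and 9.68. The rise comes from the annotated lengths alone.

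Between these 4 groups without PNK, the exact permutation test over 12 libraries gave p = 0.201 for the log2 ratio of MIR23A to MIR23B (adjusted over the 9 ratio tests, 0.457) and p = 0.271 for that of MIR27A to MIR27B (adjusted 0.487). The group means of the log2 ratio differed by at most 0.30 for miR-23 and 0.31 for miR-27, while the SD within a group was 0.13 to 0.22 and 0.12 to 0.27. With PNK, the ratio of MIR27A to MIR27B was 12.9, 6.82 and 9.86 in A4, 7.90, 10.5 and 8.73 in A7, 4.19, 6.86 and 6.73 in E4 and 4.2, 5.44 and 4.78 in G8, against 3.70, 5.42 and 4.84 in the libraries labelled mock. All A4 and A7 libraries lay above all G8 libraries and all libraries labelled mock. The exact permutation test across A4, A7, E4 and G8 gave p = 0.0208, which did not pass after adjustment over the 9 tests (0.104). A pseudocount of 5 counts instead of 0.5 took it past the threshold (adjusted 0.0288). A larger pseudocount lowers a ratio above 1 more where counts are low, so that call does not by itself show a difference. With PNK, 8 of 15 libraries had fewer than 20 counts of MIR27B. The MIR23A to MIR23B ratio across the groups with PNK gave p = 0.769 (exact, adjusted 0.771). MIR23B had a median of 13 counts per library there and 0 in G8 library 2, where MIR23A had 19. In the other 14 libraries the ratio was 1.67 to 8.73. Without G8 libraries 1 and 2 no ratio test passed either (adjusted p between 0.251 and 0.746).

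The ratio of MIR24-2 to MIR24-1 stayed near 1 throughout, between 0.709 and 1.42 with PNK and between 0.964 and 1.13 without. Across the groups the exact permutation test gave p = 0.203 with PNK and p = 0.771 without (adjusted 0.457 and 0.771). Since miR-24-3p is identical from both hairpins, how far this ratio depends on the assignment of reads was not tested, and neither MIR24 row is a measure of its own cluster.

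**Figure D3:**
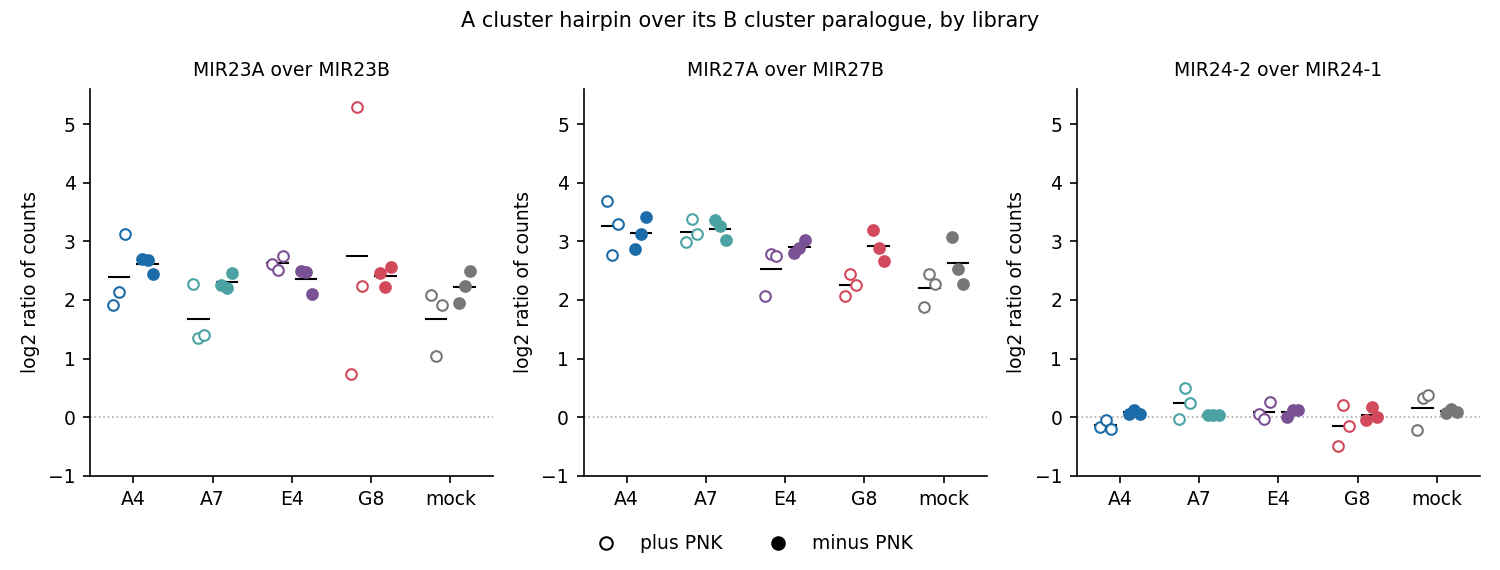
Log2 ratio of each A cluster hairpin to its B cluster paralogue in 30 libraries, by group, with plus PNK libraries as open points left of minus PNK libraries as filled points; black lines are means. MIR27A exceeds MIR27B by 3.70 to 12.9 times in all libraries, and MIR24-2 and MIR24-1 stay near a log2 ratio of 0. The highest MIR23A point is G8 library 2 with PNK, with 19 counts against 0.

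With PNK the counts were low, with medians of 161 per library for MIR27A, 87 for MIR24-1, 81 for MIR24-2, 56 for MIR23A, 18 for MIR27B and 13 for MIR23B. Only large differences could therefore be seen for MIR27B and MIR23B. MIR27A had 25.2, 20.7 and 33.1 CPM in A4, 37.6, 21.8 and 24.1 in A7, and 22.9, 26.7 and 20.6 in E4. It had 5.70, 4.39 and 19.5 CPM in G8, against 11, 9.03 and 7.26 CPM in the libraries labelled mock. All 9 libraries of A4, A7 and E4 lay above all 3 labelled mock, and G8 lay on both sides of them. MIR27A was higher than in the libraries labelled mock by 1.53 on the log2 scale in A4 (SE 0.40, edgeR adjusted p = 0.0176), by 1.61 in A7 (SE 0.39, adjusted p = 0.0255) and by 1.37 in E4 (SE 0.39, adjusted p = 0.0416), and did not pass in G8 (0.17, SE 0.40, adjusted p = 0.866). By the labels, the libraries labelled mock differ from these groups in cell line, oligonucleotide and knockout. These cannot be told apart in any comparison with them.

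MIR24-2 had 12.1, 11.1 and 13.8 CPM in A4, 26.3, 10.9 and 16.8 in A7, 13.2, 15.5 and 16 in E4 and 3.50, 2.75 and 13.1 in G8, against 6, 6.59 and 6.77 CPM in the libraries labelled mock. It was called higher in A7 (log2 1.47, SE 0.40, edgeR adjusted p = 0.0410) and not in A4 (0.93, SE 0.41, adjusted p = 0.168) or E4 (1.2, SE 0.40, adjusted p = 0.0747), although all 9 libraries lay above those labelled mock. MIR23A had 15.2, 13.9 and 12.3 CPM in E4 against 3.77, 4.46 and 5.20 CPM in the libraries labelled mock, without overlap, and just missed the threshold there (log2 1.62, SE 0.50, edgeR adjusted p = 0.0561). Without G8 library 1, 2 or 3 it passed in E4 (adjusted p = 0.0161, 0.0473 and 0.00217). With all libraries, none of the B hairpins was called, although MIR24-1 was without G8 library 3: MIR24-1 had log2 fold changes of 1.23 in A4, 1.48 in A7 and 1.27 in E4 (edgeR adjusted p = 0.106, 0.0776 and 0.103), MIR27B 0.42, 0.67 and 1.05, and MIR23B 0.37, 0.47 and 0.57. Reads of miR-24-3p cannot be assigned to either MIR24 hairpin. The A7 call of MIR24-2 (1.47) and miss of MIR24-1 (1.48) therefore do not separate the clusters. Whether the A and B hairpins differ in this response was not tested.

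In all, edgeR called 1 of 6 hairpins in A4, 2 of 6 in A7, 1 of 6 in E4 and 0 of 6 in G8 against the libraries labelled mock with PNK, all of them higher, where 8.38%, 3.25%, 5.41% and 2.82% of all features were called higher; in G8 1850 features had an unadjusted p under 0.05, and DESeq2 also called 0 hairpins there. The direction was shared by microRNA rows in general: 53 of 211 microRNA rows were called higher in A4, 62 in A7 and 64 in E4, with median log2 fold changes of 0.93, 0.96 and 0.95, while the median of all features was -0.01 in each. Scaled on microRNA rows alone, which moves the median of all features to -0.86, -1.01 and -1.02, MIR27A was at 0.68, 0.58 and 0.38 in A4, A7 and E4 and no hairpin was called. Scaled on library totals, which moves the median of all features to -0.54, -0.20 and -0.30, no hairpin was called either: MIR27A was at 1.01 in A4, 1.42 in A7 and 1.09 in E4 (edgeR adjusted p = 0.0951, 0.0911 and 0.129) and MIR24-2 at 1.25 in A7 (0.145). The MIR27A and MIR24-2 calls thus held with TMM factors and not with either of these scalings. The blood-cell microRNAs moved with MIR27A: of the 6 members of that list that were tested, 5 were called higher in A4, 4 in A7 and 5 in E4, with median log2 fold changes of 1.48, 1.69 and 1.9, and 0 in G8 (median -0.01). Their part in the MIR27A result was not tested.

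These counts of calls changed when single libraries were left out. Without G8 library 3, which shares the estimate of spread, edgeR called 4 hairpins higher in A4, 3 in A7 and 4 in E4, adding MIR23A in A4 and E4 (adjusted p = 0.0225 and 0.00217), MIR24-2 in A4 and E4 (0.0190 and 0.00430) and the B hairpin MIR24-1 in A4, A7 and E4 (0.0211, 0.0124 and 0.0216). In A7, MIR24-1 was also called without A7 library 2 (0.0312) or G8 library 2 (0.0354), and in E4, MIR24-2 without G8 library 2 (0.0430). Without G8 libraries 1 and 2, edgeR called 4 hairpins higher in A4 and in E4 and 3 in A7; MIR23A then passed in G8 (log2 1.59, adjusted p = 0.0350), where 1 library was left and was assumed to vary like the other groups. The MIR27A calls were lost in A4 without A4 library 3 (edgeR adjusted p = 0.0601), in A7 without A7 library 1 (0.138) and in each group without mock library 2 or 3, where the adjusted p was 0.0653 and 0.0825 in A4, 0.0896 and 0.117 in A7 and 0.116 and 0.150 in E4. In E4 the call was lost without any single library of E4 or mock, or without A4 library 1 or A7 library 3 (adjusted p up to 0.150). The A7 call of MIR24-2 was lost without any library labelled mock, any E4 library, A4 library 1, A7 library 1 or A7 library 3 (edgeR adjusted p up to 0.217).

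**Figure D4:**
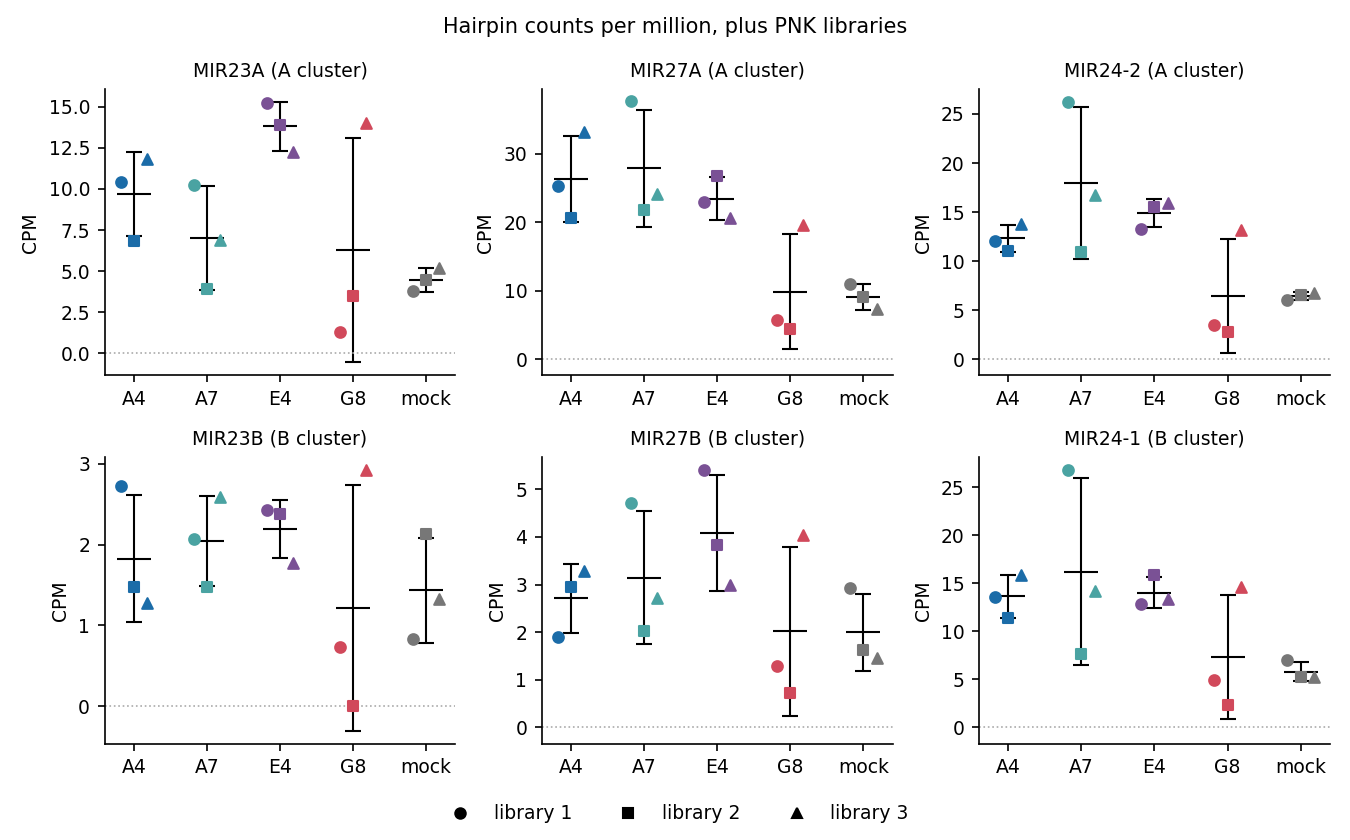
CPM of the 6 hairpins in the 15 libraries with PNK, by group; points are libraries, marker shape gives the library number, and the black bars are the mean and SD of 3 libraries. MIR27A in A4, A7 and E4 lies between 20.6 and 37.6 CPM, above 7.26 to 11 CPM in the libraries labelled mock.

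Between the 4 THP-1 groups with PNK, edgeR called 0 of 6 hairpins, against 22.1% of all features (3149 of 8584 features had an unadjusted p under 0.05). MIR27A came nearest (edgeR adjusted p = 0.0652), then MIR24-2 (0.109), MIR23A (0.327), MIR24-1 (0.330), MIR27B (0.461) and MIR23B (0.823). DESeq2 called MIR27A (adjusted p = 0.0387), as did edgeR over every deposited row (0.0338), and with no filter on low counts edgeR called MIR23A, MIR27A, MIR24-2 and MIR24-1 (adjusted p between 9.61e-07 and 0.00230). Without G8 library 3, edgeR called 5 of the 6, all except MIR23B (adjusted p between 0.000279 and 0.0369).

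Plus against minus PNK asks how end repair changes what is read from these loci. All 6 hairpins were lower with PNK in all 5 groups by edgeR, where 17.1%, 18.9%, 18.3%, 14.8% and 18% of all features were called lower in A4, A7, E4, G8 and the libraries labelled mock. MIR27A, for example, had 213, 112 and 182 counts with PNK in A4, against 21859, 20678 and 29386 counts without. The log2 fold changes lay between -9.85 and -8.72 in A4, -9.67 and -8.89 in A7, -9.63 and -8.75 in E4, -10.09 and -9.10 in G8 and -11.49 and -10.40 in the libraries labelled mock (edgeR adjusted p at most 4.30e-05). Their size depends on the scaling, because the median of all features lay 2.51 to 3.29 log2 units higher with PNK: with library totals the 6 hairpins were at -7.60 to -5.51, all still called lower in every group.

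The hairpins also lost ground against other microRNAs. They made up 0.678% to 1.54% of microRNA counts with PNK, against 2.02% to 3.53% without, and these ranges did not overlap in 15 libraries against 15. Scaled on microRNA rows alone, they fell by 0.88 to 2.35 on the log2 scale in A4, A7, E4 and the libraries labelled mock, and all 6 passed the edgeR test in each of these (adjusted p at most 0.00949). In G8 they were at -1.40 to -0.70 and none passed (adjusted p between 0.108 and 0.431). MIR27A had the lowest value of the 6 in A7 (-2.25), E4 (-1.77) and the libraries labelled mock (-2.35), and MIR27B in A4 (-2.09). MicroRNA rows did not move as a block: in A4, 36 of 309 were called higher with PNK and 257 lower by edgeR, with a median of -7.80 on the scale of all rows. A list of 35 other microRNAs from paralogous clusters, such as MIR17, MIR92A1, MIR221 and MIR29A, had medians of -8.36 in A4, -8.44 in A7, -8.10 in E4, -8.44 in G8 and -10.08 in the libraries labelled mock, with every member tested called lower (31 of 31, 31 of 31, 32 of 32, 26 of 26 and 31 of 31). A list of 5 fibroblast microRNAs had medians of -8.93, -9.57, -9.96, -10.52 and -11.69 in the same order. A fall of this size was thus not particular to the 6 hairpins.

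End repair did not detectably change the balance of the clusters. The log2 ratio of MIR23A to MIR23B was lower by 0.16 with PNK (mean over 5 groups; higher in 7 of 15 same-numbered pairs), that of MIR27A to MIR27B lower by 0.28 (higher in 4 of 15) and that of MIR24-2 to MIR24-1 lower by 0.03 (higher in 7 of 15). The miR-23 mean includes G8 library 2, where MIR23B had 0 counts with PNK and the pair differed by 3.06, a value set by the pseudocount. Leaving out 1 library gave -0.41 to 0.045 for that mean. A 2-sided permutation test with 100000 resamples, arms permuted within each group, gave p = 0.645, 0.0232 and 0.689 (adjusted over the 9 ratio tests, 0.771, 0.104 and 0.771). With a pseudocount of 5 counts the miR-23 and miR-27 ratios were lower with PNK by 0.64 and 0.56 and passed (adjusted p = 0.000315 for each). A pseudocount of that size lowers a ratio above 1 more where counts are low. The median counts with PNK were 13 for MIR23B and 18 for MIR27B, against 1378 and 2977 without. Passing at that setting therefore does not show a change of balance.

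**Figure D5:**
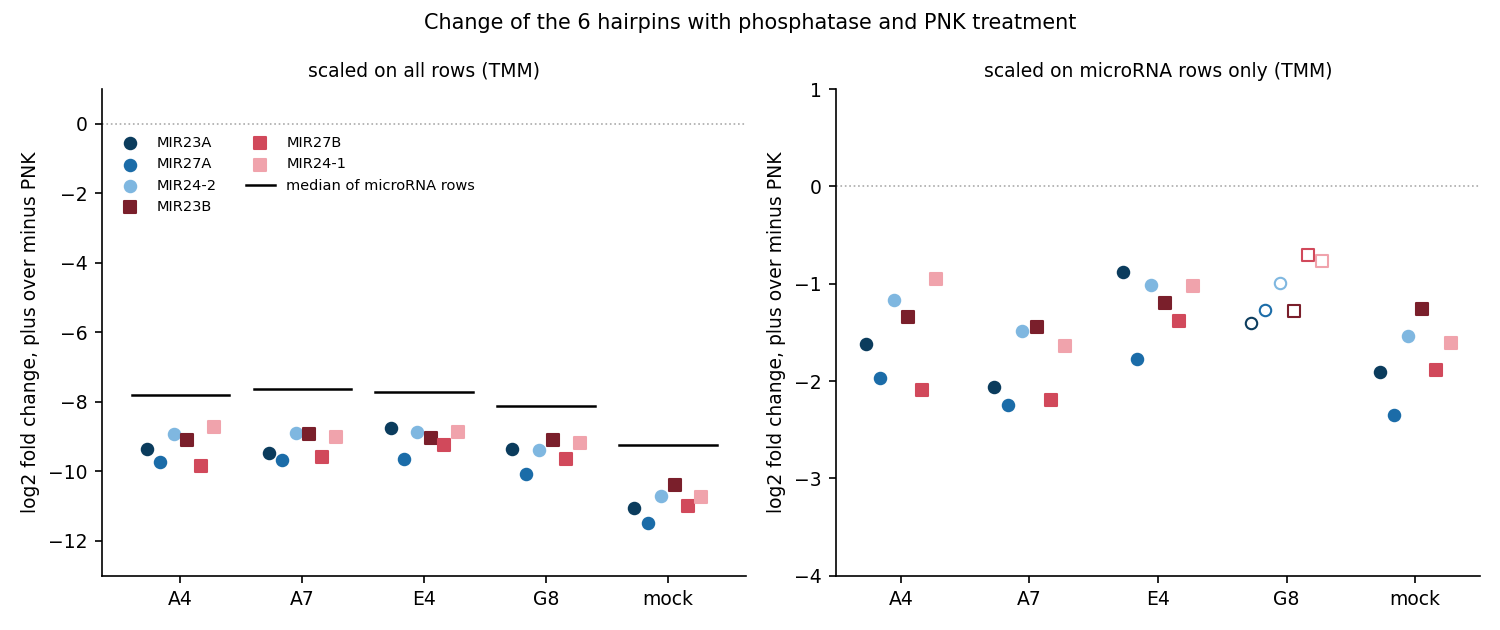
Log2 fold change of the 6 hairpins, plus over minus PNK, by group, scaled on all rows (left, with the median of the microRNA rows tested as a black line) and on microRNA rows alone (right); circles are A cluster and squares B cluster hairpins, filled where the edgeR adjusted p is under 0.05. All 6 lie below 0 in every group on both scales, and the 6 open points in G8 on the right did not pass.

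Of 358 other microRNA rows with enough counts, those whose share of microRNA counts was most like that of the A cluster sum over the 15 libraries without PNK were MIR101-1 (Pearson r = 0.954), MIR374A (0.940) and MIR340 (0.940). Those most like the B cluster sum were MIR186 (r = 0.887), MIR106B (0.874) and MIR345 (0.850). Without G8 libraries 1 and 2 these values were 0.902, 0.840 and 0.810 for the A cluster and 0.880, 0.836 and 0.804 for the B cluster. The points are libraries that share a denominator and a depth, so the values are descriptions. Without PNK, MIR24-1 gave 118226 of the 181451 counts of the B sum, and MIR24-2 gave 123650 of the 566001 of the A sum. Reads of miR-24-3p cannot be assigned to either cluster. The rows most like the B sum are therefore not shown to follow the B cluster itself. With log2 CPM in place of the share of microRNA, MIR101-1 and MIR340 were again among the 3 nearest to the A cluster, and MIR106B and MIR186 among the 3 nearest to the B cluster, with MIR32 and MIR223 as the others.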

How the data were processed

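Small RNA libraries were made from RNA with or without Antarctic phosphatase and PNK with the NEBNext Small RNA kit, per the labels' protocols. The authors deposited 1 table of read counts for annotated rows, whole numbers with no normalization. Per the submitters' processing notes, reads were handled with Trim Galore, FastQC, Bowtie2 2.3.5.1, SAMtools 1.9, deepTools 3.2.1 and bedtools 2.28.0 on GRCh38; the sources used here do not state the handling of reads with several alignments, of strand or of overlapping rows. On the values, 45 of 46 rows over 1 arm, with arms at most 20 bases apart, held at least 95% of the counts of their hairpin. With arms at least 28 bases apart, 7 of 16 did. A row over the arm with most reads can hold that share by itself, so these shares alone do not show reach. A long row ending at chr19:13836287, before miR-24-3p (from 13836289), held 117755 counts without PNK, against 123650 for MIR24-2. That row thus counted reads beyond its edge, and how far rows reach was not tested.

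From 175946 rows a non-overlapping subset of 85659 was made. The quasi-likelihood test of edgeR 4.0.16 (R 4.3.3) was used on these counts (TMM factors, filterByExpr, Benjamini-Hochberg over all rows tested, threshold 0.05), each arm alone over 12 libraries across A4, A7, E4 and G8 and over 15 against the libraries labelled mock, and over the 6 libraries of a group when plus was set against minus PNK. SE is the size of the log2 fold change over the square root of F. Paralogue ratios (pseudocount 0.5 counts) were tested by exact permutation of libraries, or with 100000 resamples within groups, adjusted over 9 tests; cluster sums were not tested. Alternatives were DESeq2 1.42.0, other scalings, no filter on low counts, every deposited row, other pseudocounts, a replicate block and leaving out libraries. Scripts were tested on simulated data. Replicate numbers were checked for pairing on the residuals: every same-numbered pair correlated above 0.1 for A4 with E4, A4 with G8 and A7 with mock without PNK and for plus with minus PNK in A4, E4 and G8 (as found in the data, not stated in the labels), and not for the other pairs of groups; the block was kept as an alternative.

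Named rows are the 6 hairpins, the rows that share their reads or place, and the 3 microRNA rows with the highest Pearson r to each cluster sum. The members and lists were chosen with earlier results of these data known. A list of 5 fibroblast microRNAs summed to 348 to 1253 CPM of microRNA counts in the THP-1 groups and 843 to 983 in the libraries labelled mock, without PNK. Sequences are from RefSeq.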

Additional observations from a re-analysis of the deposited data

How the results depend on the processing

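Depth was lowest with PNK, where 11 of 15 libraries had fewer than 20 counts of MIR23B and 8 of MIR27B. Every p rests on 3 libraries a group. Of 387 recalculated values for plus against minus PNK, 381 kept their direction and their side of the threshold, and 6, the hairpins of G8 on microRNA factors, lost the call. The fit of plus against minus PNK in G8 without G8 libraries 1 and 2 was not run, since it leaves no residual degrees of freedom. DESeq2 gave no adjusted p for some hairpins, which stay out of these counts. A pseudocount of 0 could not be used where MIR23B had 0 counts.

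Across A4, A7, E4 and G8, 215 of 236 recalculated adjusted p kept their side of the threshold. Without PNK the exceptions were the values without G8 libraries 1 and 2 (0.0367 for MIR24-2, 0.0212 for MIR27B, 0.0302 for MIR24-1) and without G8 library 3; leaving out 1 library gave 0.000226 to 0.961 for MIR23A, 2.91e-06 to 0.910 for MIR27A, 1.37e-05 to 0.775 for MIR24-2, 0.000422 to 0.907 for MIR23B, 2.30e-06 to 0.996 for MIR27B and 8.27e-06 to 0.760 for MIR24-1. With PNK, no filter on low counts gave 0.000590 for MIR23A, 9.61e-07 for MIR27A, 6.66e-06 for MIR24-2 and 0.00230 for MIR24-1. MIR27A also passed with DESeq2 (0.0387), every deposited row (0.0338) and the replicate block (0.0490). Leaving out 1 library gave 0.00277 to 0.509 for MIR23A, 0.000279 to 0.217 for MIR27A, 0.000757 to 0.283 for MIR24-2, 0.0369 to 0.732 for MIR27B and 0.0141 to 0.662 for MIR24-1. The cause of these shifts was not tested.

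Of 196 recalculated ratio results, 190 were unchanged in direction and call. With a pseudocount of 5 counts, MIR23A over MIR23B (-0.64) and MIR27A over MIR27B (-0.56) passed for plus against minus PNK, and MIR27A over MIR27B passed across groups with PNK (0.0288). A pseudocount of that size lowers these ratios more where counts are low, as they were with PNK. Leaving out 1 library gave -0.41 to 0.045 for MIR23A over MIR23B and -0.063 to 0.0093 for MIR24-2 over MIR24-1, plus against minus PNK. With the replicate block the adjusted p of MIR27A over MIR27B was 0.225 both across groups with PNK and for plus against minus PNK.

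Against the libraries labelled mock, 963 of 1088 recalculated values were unchanged in direction and call, 38 passed newly, 31 lost the call and 56 turned in sign, none of them with a call before or after. Without PNK the log2 fold change of MIR27A in A4 turned to -0.051 with library totals and -0.12 with the replicate block. That in E4 turned to 0.017 with DESeq2 factors, 0.0062 with library totals, 0.0068 with microRNA factors, 0.051 with no filter and 0.11 without G8 libraries 1 and 2. G8 without its libraries 1 and 2 gave 0.47 (MIR23A), 0.67 (MIR27A), 0.54 (MIR24-2), 0.17 (MIR23B), 0.66 (MIR27B) and 0.64 (MIR24-1), and microRNA factors gave 0.23 (MIR23A) and 0.093 (MIR23B). With PNK, library totals and microRNA factors gave -0.16 and -0.52 for MIR23B and -0.094 and -0.38 for MIR27B in A4. MicroRNA factors gave -0.46 (MIR23A), -0.54 (MIR23B) and -0.36 (MIR27B) in A7 and -0.44 (MIR23B) in E4. In G8, library totals gave -0.060 (MIR27A), -0.18 (MIR24-2) and -0.11 (MIR27B), microRNA factors -0.045 and the replicate block -0.041 for MIR24-2, and leaving out G8 libraries 1 and 2 gave 0.93 for MIR23B.

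Leaving out 1 library gave log2 ranges that crossed 0 without PNK for MIR27A in A4 (-0.20 to 0.27), MIR24-2 in A7 (-0.030 to 0.24), and MIR27A (-0.24 to 0.24) and MIR24-1 (-0.26 to 0.021) in E4. With PNK they did for MIR23B in A4 (-0.10 to 0.78) and in G8 for MIR23A (-0.91 to 1.01), MIR27A (-0.85 to 0.51), MIR24-2 (-1.05 to 0.42), MIR23B (-1.96 to 0.42), MIR27B (-0.95 to 0.53) and MIR24-1 (-0.65 to 0.80). The numbers of features called against mock moved more than 1.5-fold under several settings. Without PNK, A4 had 24 calls, against 4 with the replicate block and 222 without G8 libraries 1 and 2 as the extremes. A7 had 7, with extremes of 0 (the block or library totals) and 89 (without G8 libraries 1 and 2). E4 had 77, with extremes of 8 (microRNA factors) and 299 (without G8 libraries 1 and 2), and G8 had 490, with 167 (without G8 libraries 1 and 2) and 1252 (every deposited row). With PNK, A4 had 1040 and up to 4652 with every row, A7 had 458, down to 284 with library totals and up to 4575 with microRNA factors, E4 had 732 and up to 4716 with every row, and G8 had 502, down to 177 without G8 libraries 1 and 2 and up to 3035 with every row. Across the 4 THP-1 groups, 571 features without PNK and 1900 with PNK became 1845 and 11650 with every row. For plus against minus PNK, 5901 to 6661 calls a group became 13967 to 18804 with every row. The replicate block called MIR23B lower in G8 without PNK (log2 -1.19, adjusted p = 0.0470) and MIR23A higher in E4 with PNK (1.65, adjusted p = 0.0434), and changed no other call among the hairpins against mock.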
